A study of Mus musculus with 4 samples.

Results

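The regions described here are 2464 stretches of accessible chromatin from a list of peaks in mouse limb buds at stage E11.5 that have no counterpart in a list from stage E10.5, where E stands for embryonic day. They are the E11.5 peaks on the 19 autosomes that share no base with an E10.5 peak and lie outside 3 intervals: chromosome 8 from 19 to 22 Mb, chromosome 5 from 14 to 16 Mb and chromosome 4 from 146 to 148 Mb. Of 36384 autosomal E11.5 peaks, 2934 (8.06%) had no E10.5 overlap. The 3 intervals held 470 of these, and the remaining 2464 made up 6.88% of the 35792 E11.5 peaks outside the intervals. The remaining 33328 peaks overlapped an E10.5 peak and are called shared below. The regions were chosen by the presence or absence of overlapping peak calls at the 2 stages, so the signal, width and −log10 p of the 2464 regions are given as a description and support no test.

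The data come from ATAC-seq, which marks open chromatin by the insertion of sequencing adaptors with the Tn5 transposase. Fore- and hindlimbs of wild-type embryos were pooled, dissociated with trypsin and fixed with paraformaldehyde, with 2 replicates per stage (E10.5, E11.5). The titles name the earlier stage E10.5, while a protocol names it E10, and strain and sex were not given in the sources used here. Each stage was represented by 1 peak list made from both replicates, on build mm10, with 99427 peaks in the earlier list and 37548 in the later.

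The limb bud at these stages is a core of mesenchyme from the lateral plate under an ectodermal jacket, entered by vessels, muscle precursors and nerves. Blood circulates through it, and its early red cells come from the yolk sac and still carry a nucleus, so that their chromatin can be part of a whole-limb preparation. Erythroid genes are controlled by the GATA1, TAL1 and KLF1 transcription factors, of which GATA1 binds the letters AGATAA and related forms.

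Some regions lay over the starts of red-cell genes, and 9 such promoters are printed below as examples of the letters counted in the motif comparison. Each line gives the bases before the RefSeq start site that lie inside the region, read 5′ to 3′ on the gene's strand, with positions on GRCm38.p6, which shares its coordinates with mm10. Capitals mark AGATAA or TGATAA on either strand (TTATCT and TTATCA on the opposite one). The line for Uros belongs to an internal start site, and its region lies 7.75 kb downstream of the gene's outer end. Hbb-bt is shown as the promoter without a match beside its neighbour Hbb-bs, whose printed bases are similar but differ at many positions.
Epb42, chr2:121036878-121037127, minus strand: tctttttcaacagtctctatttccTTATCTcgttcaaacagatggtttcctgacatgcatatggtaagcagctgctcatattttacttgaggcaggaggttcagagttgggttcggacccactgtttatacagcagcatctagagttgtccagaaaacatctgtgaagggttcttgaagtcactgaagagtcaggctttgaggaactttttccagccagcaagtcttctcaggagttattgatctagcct
Kel, chr6:41704326-41704501, minus strand: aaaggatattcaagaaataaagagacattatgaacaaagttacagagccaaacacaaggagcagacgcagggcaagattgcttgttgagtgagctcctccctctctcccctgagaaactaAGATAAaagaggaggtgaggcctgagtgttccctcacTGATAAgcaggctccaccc
Ermap, chr4:119189996-119190201, minus strand: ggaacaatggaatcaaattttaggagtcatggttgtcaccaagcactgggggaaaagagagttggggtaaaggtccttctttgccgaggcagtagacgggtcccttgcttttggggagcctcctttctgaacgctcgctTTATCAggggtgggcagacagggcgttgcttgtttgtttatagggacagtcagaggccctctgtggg
Rhag, chr17:40811022-40811148, plus strand: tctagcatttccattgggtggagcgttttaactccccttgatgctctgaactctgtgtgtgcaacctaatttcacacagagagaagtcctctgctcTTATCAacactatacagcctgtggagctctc
Steap3, chr1:120271081-120271214, minus strand: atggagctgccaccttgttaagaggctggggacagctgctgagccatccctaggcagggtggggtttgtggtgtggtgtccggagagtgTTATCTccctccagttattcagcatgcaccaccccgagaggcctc
Uros, chr7:133702501-133702714, minus strand: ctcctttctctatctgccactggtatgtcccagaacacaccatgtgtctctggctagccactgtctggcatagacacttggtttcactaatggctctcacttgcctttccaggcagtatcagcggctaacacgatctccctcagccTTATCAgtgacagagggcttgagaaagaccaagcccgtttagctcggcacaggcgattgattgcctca
Hbb-y, chr7:103853208-103853431, minus strand: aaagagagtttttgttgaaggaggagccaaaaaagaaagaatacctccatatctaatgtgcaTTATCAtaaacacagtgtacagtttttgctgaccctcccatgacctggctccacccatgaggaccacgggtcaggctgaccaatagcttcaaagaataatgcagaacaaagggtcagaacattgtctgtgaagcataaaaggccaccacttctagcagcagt
Hbb-bs, chr7:103827929-103828153, minus strand: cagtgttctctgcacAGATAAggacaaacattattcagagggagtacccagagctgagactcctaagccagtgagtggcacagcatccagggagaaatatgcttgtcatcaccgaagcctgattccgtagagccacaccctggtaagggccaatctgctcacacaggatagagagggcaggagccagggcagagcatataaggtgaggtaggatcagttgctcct
Hbb-bt, chr7:103813924-103814112, minus strand: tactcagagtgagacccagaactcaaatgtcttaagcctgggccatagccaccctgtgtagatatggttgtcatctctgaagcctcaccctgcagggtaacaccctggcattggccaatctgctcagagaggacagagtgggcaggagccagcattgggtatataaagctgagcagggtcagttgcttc
The 8 stretches other than Hbb-bt were picked because they hold a match, so they are examples and not a count, and Kel holds 2.

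The regions were short and weak next to the shared peaks. Their width ran from 100 to 4471 bp with a median of 312 bp and quartiles of 235 and 450 bp, against a median of 631 bp for shared peaks. The signal value in column 7, which behaves as a total over the peak, ran from 200.1 to 30105 with a median of 364, against 797 for shared peaks. In 917 regions (37.2%) the signal lay under 300, close to the lowest value the list holds, and in 198 (8.04%) it exceeded 1000. Per bp of width, the signal had a median of 1.26 in the regions and 1.51 in shared peaks. The median −log10 p was 4.36, and 655 regions (26.6%) reached 5, against 56.1% of shared peaks. Regions inside the 3 left-out intervals looked different again, with a median width of 736.5 bp, a median signal of 417 and a share of 1.06% at a −log10 p of 5 or more.

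**Figure D1:**
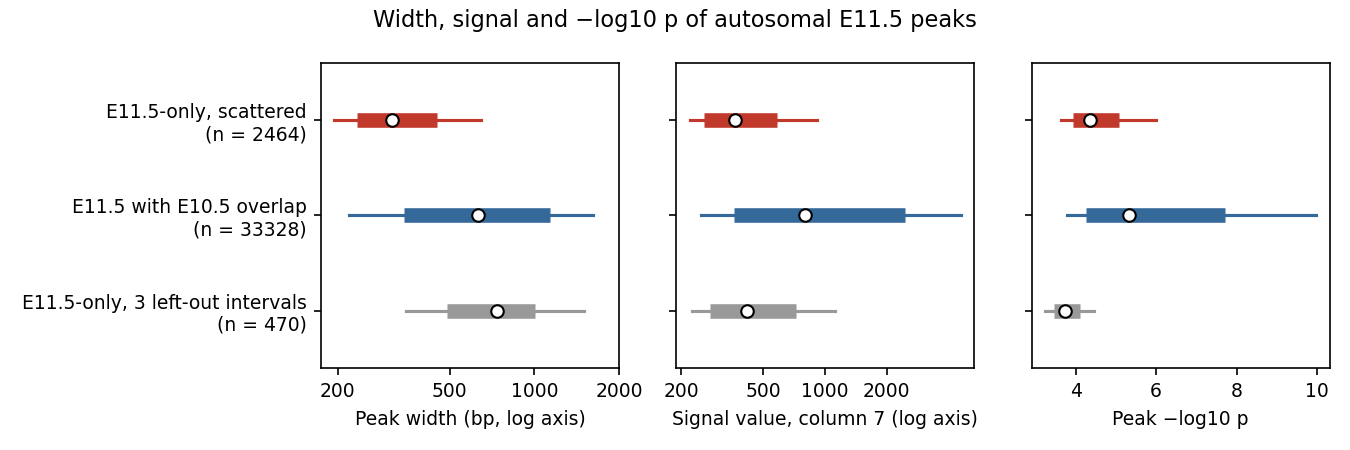
Width in bp and signal value (both on log axes) and −log10 p for the 2464 scattered E11.5-only peaks, the 33328 E11.5 peaks with an E10.5 overlap and the 470 E11.5-only peaks of the left-out intervals; circles are medians, thick bars the quartiles and thin lines the 10th and 90th percentiles. The scattered peaks have the smallest median width (312 bp) and the smallest median signal (364).

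The requirement of no shared base is a sharp one, and some regions sat close to it. The region nearest to an E10.5 peak, at chr1:156040070-156040284 by Tor1aip1, had a signal of 219 and lay 45 bp from an E10.5 peak with a signal of 3000. The next were near Slc52a3, at 48 bp and with a signal of 675, and near Has2, the hyaluronan synthase gene, at 59 bp and with a signal of 275. Just outside the rule, the smallest overlaps of shared peaks were 34 bp near Tnfaip2, 42 bp near Lbr and 42 bp near Hmgn1, and 4 shared peaks (0.0120%) overlapped by at most 50 bp. Over all distances, 242 regions (9.82%) lay within 500 bp of an E10.5 peak, 1164 (47.2%) within 5 kb and 2351 (95.4%) within 100 kb, with a median of 5.63 kb. At the far end, a region by the pheromone receptor gene Vmn2r102 had a signal of 913 and lay 1286 kb from the nearest E10.5 peak. It was followed by regions near Brinp3 (1145 kb, signal 208) and 4931417E11Rik (805 kb, signal 228). In all, 65.6% of the regions had an E10.5 peak within 10 kb without touching it.

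Distance to protein-coding start sites separated the regions from the shared peaks. Only 127 regions (5.15%, 95% Wilson interval 4.35 to 6.10%) lay within 1 kb of a start, against 11885 shared peaks (35.7%, 35.1 to 36.2%), and 53 (2.15%) lay over a start itself. Distances of 1 to 10 kb held 614 regions (24.9%, against 15.3% of shared peaks), 10 to 100 kb held 1182 (48.0%, against 31.6%) and more than 100 kb held 541 (22.0%, against 17.5%). The median distance was 27.1 kb, against 9.06 kb for shared peaks, and 88 regions (3.57%) were more than 500 kb from any start. A protein-coding gene contained 1295 regions (52.6%, against 67.3% of shared peaks). A further 247 (10.02%) lay only in a long non-coding RNA gene and 922 (37.4%) in neither. The promoter share was highest beside E10.5 peaks, at 22.8% of the regions within 200 bp of one and 15.6% from 200 to 500 bp. It was 1.77% from 5 to 10 kb and 4.63% from 10 to 100 kb. Of the 127 promoter regions, 45 lay within 500 bp of an E10.5 peak and 39 lay more than 10 kb from one.

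**Figure D2:**
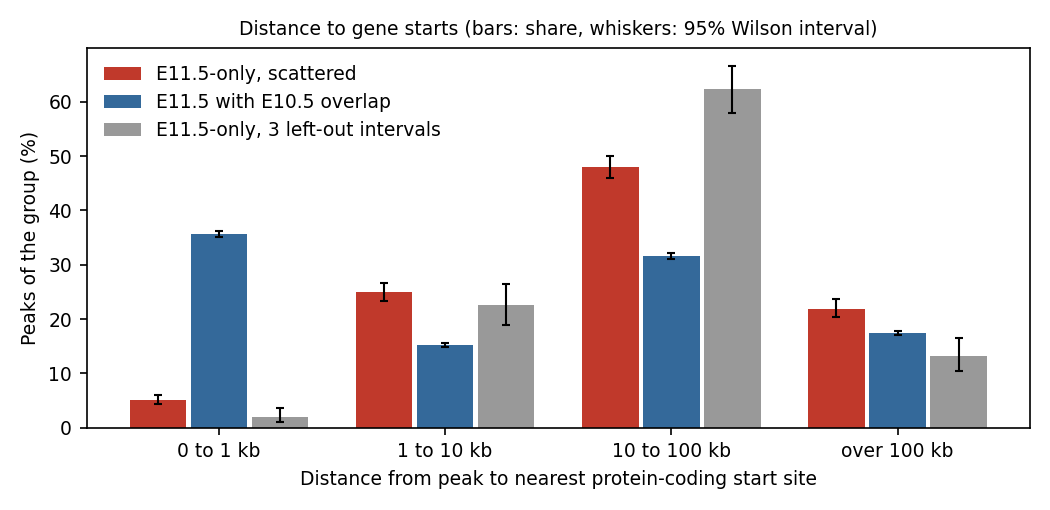
Share of peaks (%) by distance to the nearest protein-coding start site for the same 3 groups, with 95% Wilson intervals as whiskers. Scattered E11.5-only peaks hold 5.15% within 1 kb and 48.0% between 10 and 100 kb, and shared peaks 35.7% and 31.6%.

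Among the 127 promoter regions, from 121 genes, the median signal was 347. The highest signals stood at Gm2832 (2324), the water channel gene Aqp8 (1801) and Ackr1 (1588), which encodes the Duffy blood-group chemokine receptor. Gm32584 (1558), Fam205a1 (1526) and Epb42 (1524), the gene of the red-cell membrane protein 4.2, came next. Lower signals stood at Gm28455 (1120), Lrrc39 (1029) and Slc4a1 (1029), the band 3 anion exchanger of red cells. Hbb-y (972), an embryonic beta-type globin, Kel (969), the Kell blood-group protein, Akap7 (949), Cln8 (928) and 1300017J02Rik (900) were also among the 15 strongest. Of those 15 regions, 11 lay over the start itself, and 6 belonged to genes of the red-cell lists used below. Those lists were written after these promoters had been seen, so the 6 are no independent count.

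Around list genes the regions fell very unevenly. Within 10 kb of the starts of all protein-coding genes, 741 of 17719 E11.5 peaks (4.18%, 3.90 to 4.49%) were regions of this kind. Around 6 lists of red-cell genes (membrane and blood-group proteins, globins, heme synthesis, iron uptake, enzymes and regulators) 56 of 165 were (33.9%, 27.2 to 41.5%). These belonged to 34 of the 60 genes that could be placed, and 17 genes had more than 1. Over all protein-coding genes, 755 of 20364 (3.71%) had a region within 10 kb and 95 (0.467%) had 2 or more. Within 1 kb of a start the counts were 19 of 65 for red-cell genes (29.2%) and 127 of 12012 for all genes (1.06%). The 6 lists were written after the strongest promoter regions had been seen, so both red-cell shares are descriptions and no independent support. In bulk tissue, more cells of a type and more open chromatin per cell cannot be told apart, and the share of red cells in either stage was not measured. Of the 60 genes, 58 had an E11.5 peak within 10 kb and 49 an E10.5 peak, and within 1 kb the numbers were 53 and 43. The part that such cells play in these counts was not tested.

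Membrane and blood-group genes held 18 of 43 E11.5 peaks without E10.5 overlap, at 10 of 18 genes. Ackr1 had regions at its start (1588) and 3.97 and 9.42 kb downstream (331 and 218). Kel had them at its start (969), 0.861 kb downstream (404) and 1.79 kb upstream (631). Slc4a1 had a second region 1.28 kb downstream (597). Ermap, an erythroid membrane-associated protein, had 537 at its start and 446 at 0.419 kb upstream. Rhag, the Rh-associated glycoprotein, had 202 at its start and 717 at 4.11 kb upstream. Epb41, a membrane skeleton gene, had 1 region, of 761.

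Apart from globins, the other red-cell groups had a smaller share of regions at the starts themselves. Within 1 kb, globins had 4 of 7 peaks and membrane genes 10 of 21. Iron genes had 3 of 9 there, heme synthesis genes 1 of 10, regulators 1 of 14 and enzymes 0 of 4. Within 10 kb, heme synthesis genes held 10 of 29 peaks, at 6 of 9 genes. Slc25a38, the mitochondrial glycine carrier, had 3 (266, 1325 and 519), at 4.399 to 5.793 kb downstream, and Cpox, coproporphyrinogen oxidase, had 218 near its start and 707 at 7.97 kb upstream. The mitochondrial transporter gene Abcb10 had 800 at 5.51 kb upstream. Uros, uroporphyrinogen III synthase, had 719 over the internal start printed above. Iron genes held 5 of 12, with Tfr2, transferrin receptor 2, at 484 and 618, and Steap3, an endosomal ferrireductase, at 520 and 258. Enzyme genes held 6 of 16, with 3 regions upstream of Car2, a carbonic anhydrase, at 445, 442 and 903. Regulator genes held 8 of 49, the lowest share of the 6 lists (16.3%), with 3 at Tal1 (250, 342 and 243), 851 at Nfe2 and 303 at 0.574 kb upstream of Klf1.

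The limb's own genes and markers of other cell types were counted in the same way. Limb patterning genes had 0 regions among 133 E11.5 peaks within 10 kb of 52 starts. By the limit of 3 counts for a 0, that allows a share of up to 2.26%, and the Wilson interval reaches 2.81%. All 54 E11.5 peaks within 1 kb of those starts had an E10.5 overlap. Cartilage and joint genes had 0 of 35, muscle genes 0 of 19, nerve and glia genes 0 of 20 and ectoderm genes 0 of 15. With so few peaks, those 4 lists allow shares of up to 8.57%, 15.8%, 15% and 20% by the same limit. Their Wilson intervals reach 9.89%, 16.8%, 16.1% and 20.4%. A vessel and blood list had 4 of 29, of which 3 were at Tal1 and 1 at Klf1. Platelet and megakaryocyte genes, which share GATA1 with the red lineage, had 4 of 12, at 3 of 11 genes: Tubb1 (706 and 1057), Gp9 (380) and Itga2b (308). White-cell genes had 0 of 5, too few to read, and 0 of 14 had an E11.5 peak within 1 kb of the start, against 1 of 14 in the E10.5 list.

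The contrast between red-cell and limb genes held for peaks that do not touch, and not for a looser comparison. When an E10.5 peak had to cover 50% of the E11.5 peak and be covered by 50%, 64.2% of E11.5 peaks near red-cell genes and 63.2% near limb genes had no such partner. Among all 35792 E11.5 peaks outside the 3 intervals, 16395 had none by that rule. When no E10.5 peak was allowed within 5 kb, the red-cell share was 16.4%, the limb share was 0%, and 1300 of the 35792 peaks remained. Those 1300 are part of the 2464 regions, so the limb share was fixed at 0% by the 0 of 133 above. Within 10 kb, the 52 limb starts had 243 E10.5 peaks and the 60 red-cell starts 152. What this difference adds to the contrast was not tested. The share around all protein-coding genes was not counted under either rule. Within 100 kb, limb genes had 9 of 344 peaks (2.62%) at 6 of 52 genes (11.54%), against 1923 of 29426 peaks (6.54%) and 21.1% of genes over all protein-coding genes. Bmp7 had 394 and 211, at 96.2 and 97.2 kb, both nearer to Rbm38. Fgf4 had 274 at 72.3 kb, nearer to Ano1, and 325 at 46.5 kb, nearer to LTO1. Tfap2b, a limb bud transcription factor gene, had 250 at 99.0 kb, inside Tfap2d, and 299 at 29.6 kb. Kdr, the endothelial VEGF receptor gene, had 432 inside the gene and 461 at 84.4 kb, nearer to Srd5a3. The 9 limb regions had a median signal of 299, the red-cell regions within 10 kb one of 482, and all regions one of 364.

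**Figure D3:**
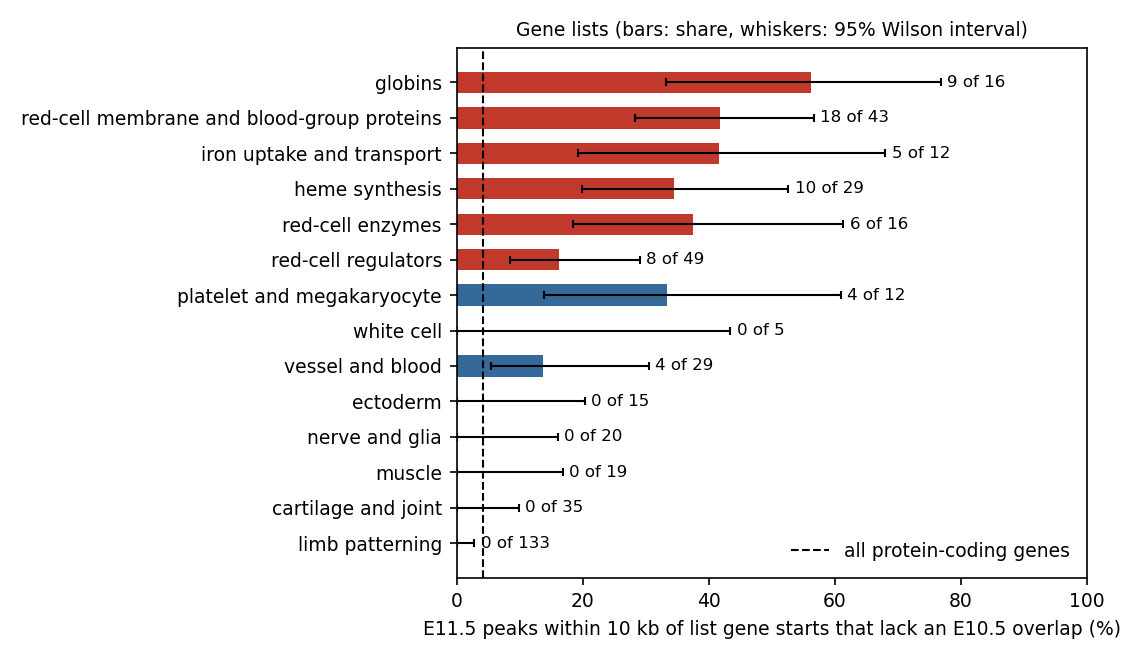
Share (%) of the E11.5 peaks within 10 kb of the starts of each gene list that have no E10.5 overlap, with 95% Wilson intervals as whiskers, counts beside the bars and the value for all protein-coding genes (4.18%) as a dashed line; red bars are red-cell lists. Globins have 9 of 16, of which 8 are at the beta-type genes, and limb patterning genes 0 of 133. Lists of red-cell, platelet and white-cell genes were written after the strongest promoter regions had been seen.

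The reverse direction was read from the E10.5 list. Outside the 3 intervals 68.1% of E10.5 peaks had no E11.5 overlap, that list being the longer. Within 10 kb of red-cell starts the figure was 61 of 152 (40.1%), and near limb patterning genes 139 of 243 (57.2%). By list it was 22 of 42 at membrane and blood-group genes (52.4%), 7 of 12 at iron genes (58.3%) and 23 of 56 at regulators (41.1%). It was 6 of 24 at heme synthesis genes, 3 of 11 at enzymes and 0 of 7 at globins. Within 10 kb of all protein-coding starts the figure was 11859 of 27629 (42.9%), close to the 40.1% of the red-cell lists together. The depth of the libraries is unknown, and a deeper library can yield more peaks.

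The beta-globin genes formed the longest run of regions, with 9 spaced at most 10 kb apart from 103843074 to 103877405 on chromosome 7. Within 100 kb of the Hbb-y start there were 15 E11.5 peaks, of which 12 had no E10.5 overlap, and 3 E10.5 peaks, all shared and 57 to 60 kb away. The region over the start of Hbb-y had a signal of 972. Upstream, where the locus control region that enhances these genes lies, 5 regions followed at 6.1, 7.9, 12.7, 17.6 and 24.1 kb, with signals of 727, 1190, 975, 695 and 274. Downstream of Hbb-y, weaker regions lay over the starts of Hbb-bh1 (270) and of the adult-type genes Hbb-bs (480) and Hbb-bt (239). The bases printed above for Hbb-bs and Hbb-bt are similar but differ at many positions. How reads that fit both genes were placed is not given in the sources used here. A last region lay 89.7 kb away with a signal of 398. The alpha-type genes were unlike the beta-type genes: the starts of Hba-a1, Hba-a2 and Hba-x each had a peak in both lists. The split of reads between the near-identical Hba-a1 and Hba-a2 is uncertain. Of 8 E11.5 peaks within 10 kb of those 3 starts 1 had no E10.5 overlap, 7.35 kb upstream of Hba-x with a signal of 269, against 8 of 8 around the 5 beta-type starts.

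**Figure D4:**
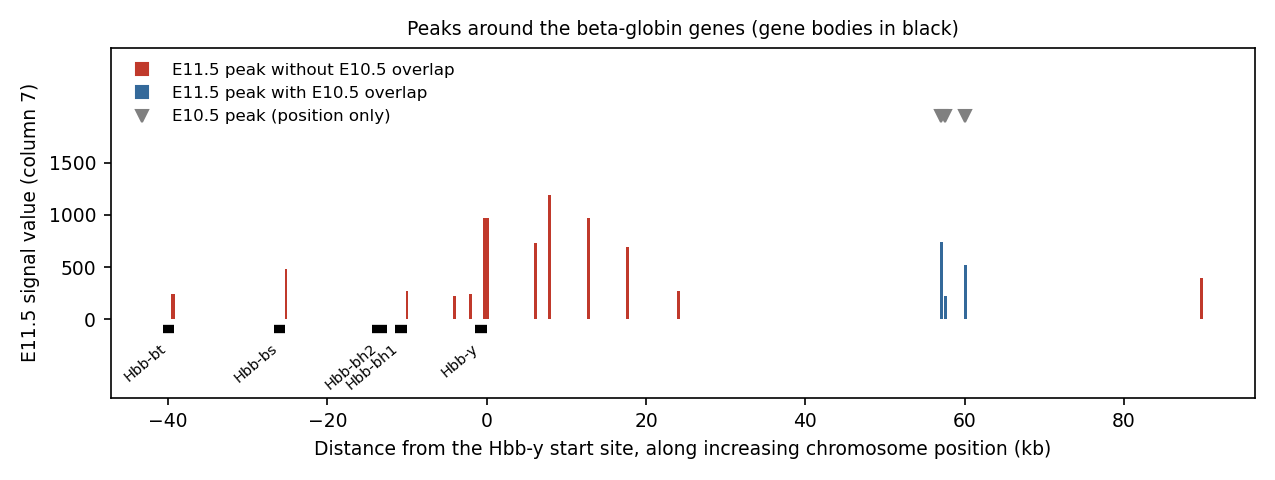
E11.5 peaks around the beta-globin genes by distance in kb from the Hbb-y start (horizontal) and signal value (vertical); red bars have no E10.5 overlap, blue bars do, triangles mark E10.5 peaks and black bars the genes. All 12 red peaks but 1 are centred between 39.3 kb downstream and 24.1 kb upstream of the Hbb-y start, and the triangles stand above the 3 blue ones.

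Sequence was compared over promoter windows of 300 bases, 250 before to 50 after each RefSeq start. Letters were counted over the whole window, even where a region shared few of its bases. The shortest overlaps included 3 bases at Gm32584, 4 and 41 bases at Brinp3 and 16 bases in a window of Tfr2. At Crls1, at Crisp2 and in both windows of Brinp3 the counted matches lay outside the region. These windows are kept in the count of 31 below. The regions overlapped 58 windows of 53 genes. AGATAA or TGATAA, on either strand, was found in 31 of these (53.4%, 40.8 to 65.7%), in 7.83% of the 12049 windows under shared peaks, in 30.3% of the 6653 windows under no peak of either list and in 15.7% of all 20085. Base composition moved with this: the median number of CG pairs was 4 in the regions' windows, 22 under shared peaks and 3 under no peak, and GC content was 49.0%, 62.3% and 46.3%. The GC-rich motif GGGCGG was in 17.2% of the regions' windows, 69.3% of the shared ones and 47.0% of all. In windows under no peak, which are nearest in base composition, GGGCGG was in 9.38%. TATAAA was in 13.8% of the regions' windows, 12.7% of all and 25.4% under no peak, and TGACTCA in 3.45%, 4.70% and 7.68%. CCAAT was in 46.6%, 38.1% and 39.6%, and CCACACCC, the letters KLF1 binds, in 10.3%, 3.65% and 3.62%. The GATA-type letters were in 10 of 15 windows of red-cell and platelet genes and in 21 of 43 of the others (48.8%). The GATA-type and CCACACCC motifs were chosen after the promoters had been seen, and a match is a description of the letters, not a site or a cause.

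**Figure D5:**
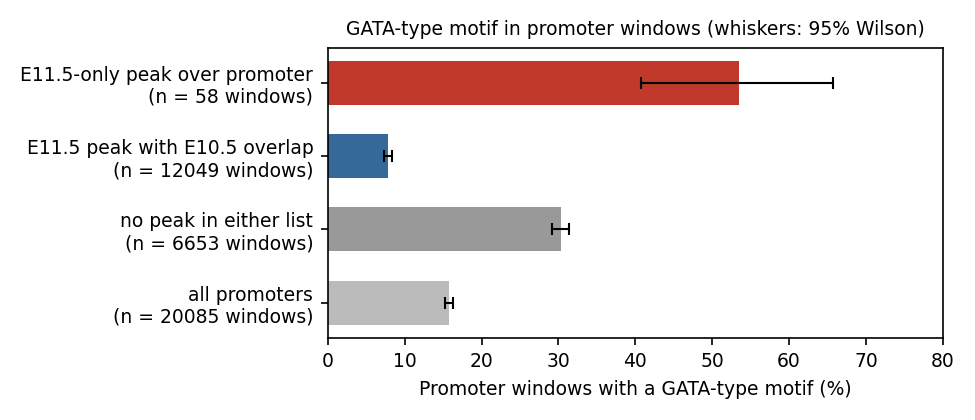
Share (%) of 300-base promoter windows with AGATAA or TGATAA on either strand, by the peaks that overlap them, with 95% Wilson intervals as whiskers. Windows under an E11.5-only peak stand at 53.4%, those under no peak at 30.3% and those under a shared peak at 7.83%.

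By nearest start site, 1747 of 20364 protein-coding genes had a region and 449 had 2 or more, which together held 1166 regions. A count of 3 or more was reached by 159 genes and 4 or more by 51. Counted by position inside the gene instead, 196 genes had 2 or more. Within 100 kb of the start 1357 of the 20364 did (6.66%), since there a region can count for several genes. The 13 genes with 6 or more are named here, with 2 of the 9 that have 5, taken by summed signal. Several belong to gene families or lie near the start of a chromosome: Eif4enif1 (17), Olfr161 (12), Gm3115 (8), Zfp980 (8), Gm3248 (7), Vmn1r2 (6) and Zfp990 (6). The regions next to Eif4enif1 lay 19.4 to 99.8 kb from its start, and 13 of them sat in the neighbouring gene Sfi1, a centrosome protein gene. The regions next to Olfr161, an odorant receptor gene, were all at least 239 kb away.

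The others were 3110040M04Rik (7), Kcnab2 (6), Hbb-y (6), Nrip1 (6), Tbc1d2b (6), Ajap1 (6), Slc30a10 (5) and Cited2 (5). Nrip1, which encodes a corepressor of nuclear receptors, had 5 regions downstream of its start inside the gene, with signals of 1086, 416, 592, 1315 and 255, and 1 of 272 at 187 kb upstream. Tbc1d2b, a gene of the Rab GTPase-activating family, had 1397, 1048, 542 and 302 downstream and 377 and 269 upstream. Kcnab2, a potassium channel subunit gene, had its 6 at 70.6 to 485 kb upstream, of which 1718, 1332 and 1541 were the highest. Slc30a10, a manganese exporter gene, had its strongest at 60.7 kb downstream (1790). Cited2, a transcriptional coregulator gene, had 819 at 3.71 kb upstream and 1376 at 1122 kb upstream, too far to tie the region to it by distance. Besides these, Prkca had 6 regions in its body, and St3gal1 had 5.

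The name scattered fits most of the regions. Of 1166 windows of 1 Mb with a region, 567 held 1 and 593 held 2 to 9, and 1935 regions (78.5%) lay in windows with 1 to 4. With 10 kb as the largest gap, 1789 regions (72.6%) had no other within reach, while 223 runs of 2, 48 of 3 and 16 of 4 or more were found. Only 6 windows held 10 or more, with 86 regions (3.49%): 20 by Zfp980 and Zfp990 on chromosome 4, 17 by Eif4enif1 on chromosome 11, 15 by Gm3248 on chromosome 14, 12 by Olfr161 on chromosome 16, 12 at the beta-globin genes on chromosome 7 and 10 by Ube2l6, Slc43a1, Zswim2, Calcrl and Tfpi on chromosome 2. Calcrl encodes a receptor and Tfpi a coagulation inhibitor of vessel walls. The first 5 Mb of the chromosomes, next to the centromere in the mouse, held 93 regions (3.77%), against 1.83% of shared peaks. Per chromosome, the regions made up 5.31% (chromosome 8) to 8.96% (chromosome 14) of the E11.5 peaks.

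Gene families known for many copies differed among themselves. Odorant receptor genes (Olfr) were nearest to 27 regions (1.10%, 0.754 to 1.59%) and to 0.219% of shared peaks, and pheromone receptor genes (Vmn) to 21 (0.852%, 0.558 to 1.30%) and 0.108%. Predicted genes named Gm with a number were nearest to 116 (4.71%, against 2.10%), while zinc finger genes named Zfp were nearest to 41 (1.66%, against 2.10%) and Cyp genes to 4 (0.162%, against 0.201%). Keratin (Krt) and taste receptor (Tas2r) genes were nearest to 0 regions, against 0.0780% and 0.0150% of shared peaks. Olfr and Vmn genes make up 5.41% and 1.72% of all coding genes, more than their shares of the regions. Gm and Zfp genes make up 4.28% and 1.92%, close to their shares of the regions. The 3 highest signals, 30105, 10526 and 7739, lay side by side on chromosome 10 from 3109381 to 3117207, in no gene, with 9230019H11Rik as the nearest start. The first of these, at 4471 bp, was also the widest. Next came 6346, 2110 bp wide and 21.7 kb from the start of Olfr726, and 4197, 80.9 kb from that of Vmn1r2. The widest also included 1989 bp at 10.6 kb from the start of Gm5799. Others were 1875 bp at 50.2 kb from that of Cyp51, a sterol demethylase gene, and 1809 bp at 24.6 kb from that of Eif4enif1. Reads from near-identical copies can be placed at any of them, and how such reads were treated is not given in the sources used here.

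The tissue label was checked on marker genes. Of 8 limb markers (Prrx1, Msx1, Hand2, Twist1, Meis2, Tbx5, Pitx1 and Lmx1b), 8 had a promoter peak in the earlier list and 6 in the later one, which lacked Tbx5 and Pitx1. Of 8 other-organ markers, 3 and 0 did so.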

How the data were processed

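ATAC-seq of wild-type limb cells gave 1 narrowPeak list per stage, E10.5 and E11.5, each joining 2 replicates, on mm10 per the file headers. Per the submitters' processing notes, cutadapt, Bowtie2, SAMtools, deepTools and Genrich were used, and their settings, any Tn5 shift, the treatment of multimapping reads and the way replicates were joined are not given in the sources used here. The deposited signal value (column 7) behaves as a total over the peak. The deposited −log10 p-value (column 8) is the caller's own for each peak. The deposited score (column 5) restates signal per width and was not used further. Library depth is unknown, and no spread between replicates or test between stages could be had, so no p-value was computed.

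Peaks were compared at an overlap of 1 bp with Python 3.11.15, pandas 2.3.3, numpy 2.4.6 and scipy 1.17.1, on routines tested on simulated data, and figures were drawn with matplotlib 3.10.9. Shares carry 95% Wilson intervals for counting error alone, with peaks taken as independent, and a count of 0 allows 3 counts of the total. Gene positions came from a RefSeq table of GRCm38.p6, with strand from its promoter table or, by symbol, from GENCODE M1, for 20364 of 20665 autosomal protein-coding genes. A start is the gene's outer end by strand. Promoter sequence came from RefSeq. Peak sequence elsewhere, exons and untranslated regions were not used here.

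Named genes are those of the 15 promoter regions with the highest signal, list genes with a promoter region or with 2 or more regions within 100 kb, the 15 genes with the most regions, the strongest, widest, nearest and farthest single regions, and the genes of windows with 10 or more. Some genes that this rule names are not reported here. Other genes were chosen after their values were seen. The members and lists were chosen with earlier results of these data known. The red-cell, platelet and white-cell lists were written after the strongest promoter regions had been seen.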

Additional observations from a re-analysis of the deposited data

Results flagged for a closer look

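E11.5 peaks without E10.5 overlap also occurred on sequences that the comparisons left out. Chromosome X had 126 of 970 (13.0%, 95% Wilson interval 11.0 to 15.3%), chromosome Y had 15 of 59 (25.4%, 16.1 to 37.8%), and sequences outside the assembled chromosomes had 93 of 134 (69.4%, 61.2 to 76.6%). On the autosomes the share was 8.06%.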

How the results depend on the processing

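No paired analysis was possible because the lists used here join both replicates, and leaving out a replicate was likewise not possible. Over 10 results and 13 alternatives, 42 values stayed close to the reported ones and 36 moved. Holding both lists to a −log10 p of at least 5 left 1097 regions, with 7.47% at promoters, medians of 451 bp and 839 in signal, and 139 genes with 2 or more. With the E11.5 list alone so held, there were 655, with medians of 421 bp, 787 and 32.2 kb and 74 genes. The red-cell share was then 26.2% (18.7 to 35.5%) and the GATA-type motif was in 66.7% of windows (45.4 to 82.8%). Both intervals overlap the reported ones. Without an E10.5 peak within 500 bp, promoters held 3.69%. Without one within 5 kb, 1300 regions remained, with 3.62% at promoters, 48.8% in genes, a median of 38.3 kb, 203 genes and a red-cell share of 16.4%. At 50% reciprocal overlap there were 16395, with 14.7% at promoters, 57.0% in genes, medians of 366 bp, 397 and 23.4 kb, 3719 genes, shares of 64.2% (red-cell) and 63.2% (limb) and the motif in 10.4%. Promoter shares were 3.33% at 500 bp, 9.90% with all gene starts and 6.57% (median 24.8 kb) with the promoter table's starts added. Genes with 2 or more numbered 196 by gene body and 1357 within 100 kb, and the red-cell share within 100 kb was 16.9%. Stricter or looser rules keep other peaks by construction; beyond that the cause was not tested. Leaving out the 6 dense windows (2378 regions left) or the first 5 Mb of chromosomes moved none of these results. The red-cell, limb and motif alternatives and those with added starts were chosen after seeing the data. Depth is unknown and limits which weak peaks either list holds.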
